A study of Mus musculus with 4 samples.

Results

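The Rflna/Hopx cells are Meis2-expressing excitatory neurons of the embryonic cerebellum that were picked by 5 genes: Rflna, Hopx, Evx1, Lmcd1 and Fgf17. They number 223 of 12546 kept cells, and 223 of the 2495 cells that passed a Meis2 gate. Barcodes counted as cells from 500 genes and 1000 UMIs (unique molecular identifiers, each standing for 1 captured RNA molecule) upward, as long as mitochondrial UMIs made up no more than 10%. The gate asked for at least 2 Meis2 UMIs, more Meis2 than Pax6, and no UMI of Olig2, Tbr1 or Lmx1a. Within the gate, a cell was a member when its summed UMIs of the 5 genes reached 2 and exceeded 4 other sums, which marked the Gria1/Col25a1, Bnc2/Zfhx3, Grm5/Bcl11b and Foxp2/Nr4a2 groups of nuclei neurons. The 1153 gated cells in which 1 of those 4 sums reached 2 and was highest are called the other nuclei neurons below. The remaining 1119 gated cells had no leading sum.

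Excitatory neurons of the cerebellar nuclei are the output neurons of the cerebellum. They arise early from the rhombic lip, from precursors that express the transcription factor Atoh1, before the same zone turns to granule cell precursors. Engrailed 1 and 2 are homeodomain repressors that pattern the midbrain and cerebellum.

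The study sorted tdTomato-positive cerebellar cells at E14.5 from 2 control libraries (Atoh1-Cre/+; R26LSL-tdT/+) and 2 En1/2 conditional knockout (CKO) libraries (Atoh1-Cre/+ and R26LSL-tdT/+ with En1lox/lox and En2lox/lox). Both groups carry the Cre driver and the reporter, so the groups differ by the floxed Engrailed alleles, which Cre deletes only in cells with a history of Atoh1-Cre activity. Animals were pooled before sorting, and 10x 3′ libraries aimed at 7000 viable cells each. Nothing ties a library to single animals, so p-values refer to pooled libraries and not to animals. The edgeR test used below shares information on spread between genes. A gene's edgeR p-value therefore does not measure the spread of that gene over its own libraries alone.

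Depth differed between libraries and, within them, between cell groups. The libraries held 14998150 to 33709450 UMIs. The median Rflna/Hopx cell of control replicate 1 held 4046.5 UMIs and that of control replicate 2 held 3080, against 13662 in CKO replicate 1 and 10723 in CKO replicate 2. Other nuclei neurons had medians of 2447 to 2993 UMIs in all 4 libraries. Cells were called intact from 4000 UMIs upward with no more than 5% mitochondrial UMIs. They made up 38.5% and 22.8% of the control Rflna/Hopx cells but 69.9% and 78.4% of the CKO ones, against 5.26% to 22.6% of the other nuclei neurons. Genotype, depth and cell integrity cannot be told apart in this design. Libraries shared 1 to 6 kept barcodes per pair, and at most 1 per pair involved a Rflna/Hopx cell.

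**Figure D1:**
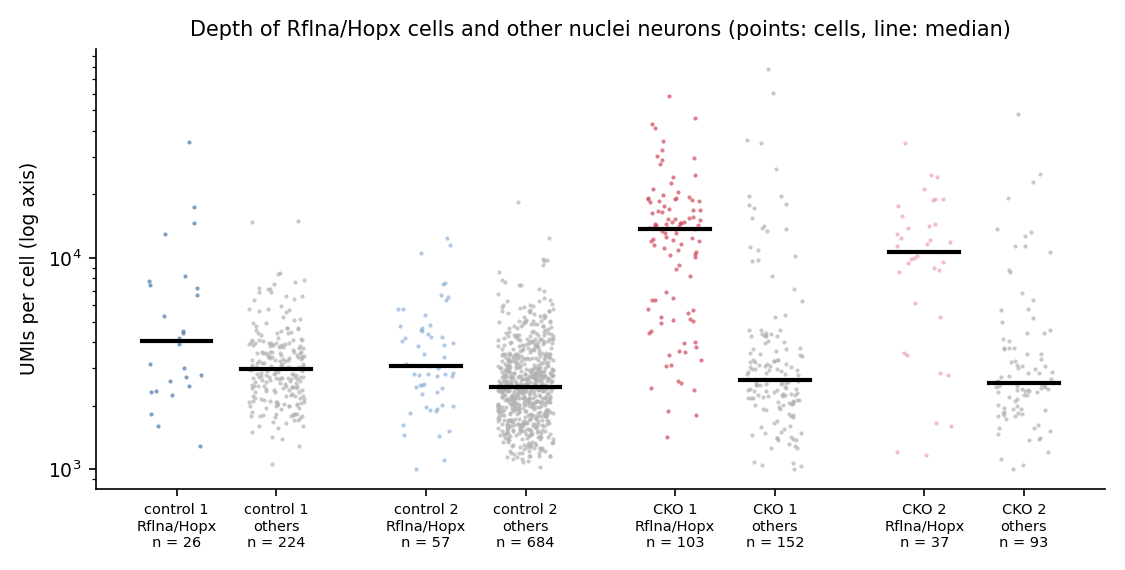
UMIs per cell (log axis) of Rflna/Hopx cells (coloured points) and other nuclei neurons (grey points) in each library, with black lines at the medians. The Rflna/Hopx medians of the CKO libraries, 13662 and 10723 UMIs, stand above those of the controls, 4046.5 and 3080, while the other neurons have medians of 2447 to 2993.

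The 5 selecting genes were detected unevenly, and these values describe the choice rather than test it. Lmcd1, which encodes a LIM and cysteine-rich domain protein, had a UMI in 80.8% and 66.7% of the control members and in 76.7% and 86.5% of the CKO members. Evx1, a homeodomain factor, followed with 57.7% and 70.2% in the controls and 59.5% to 79.6% in the CKO libraries. Rflna, which encodes the filamin-binding protein refilin A, was found in 30.8% and 14.04% of control members and 45.6% and 43.2% of CKO members. Hopx, an atypical homeodomain protein without DNA binding, was found in 23.1% and 14.04% against 43.7% and 56.8%. The CKO members held more UMIs per cell, as given above, and the part of depth in these percentages was not tested. As levels relative to all UMIs, given below, Hopx overlapped between the genotypes. Fgf17, a secreted ligand of the FGF8 subfamily, was found in 22.8% to 38.5% of members. In Pax6-expressing granule lineage cells of the same libraries (median depth 2302 to 12577 UMIs) each of the 5 genes had a UMI in at most 3.83% of cells. Those cells held no Meis2 UMI. The other nuclei neurons, which passed the same gate as the members, also held Evx1. Their 224 and 684 control cells had 48 and 115 Evx1 UMIs, against 25 and 70 in 26 and 57 control members. Their CKO cells had 71 and 21, against 335 and 57 in the CKO members. Relative to all UMIs, Evx1 was higher in the members of every library. Lmcd1 and Evx1 were the genes detected in the most members of every library, although Rflna and Hopx give the group its name. By UMIs they did not both lead in control replicate 1, where Lmcd1 had 52, Fgf17 26 and Evx1 25. Nor did they in CKO replicate 2, where Hopx had 78, Lmcd1 75, Rflna 61 and Evx1 57.

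Most members showed only part of the gene set. A single gene of the 5 was detected in 33 members, 2 genes in 88, 3 in 66, 4 in 28 and all 5 in 8. Members with 1 or 2 of the genes had median depths of 3891 and 4056.5 UMIs, and members with 3 had a median of 13562. Evx1 and Lmcd1 were found together in 119 members, which is 74.8% of the Evx1 cells and 70.0% of the Lmcd1 cells. Rflna and Hopx were found together in 34 members, or 43.0% of the Rflna cells and 42.5% of the Hopx cells. Of the 71 Fgf17 cells, 55 also had Lmcd1 and 18 had Rflna.

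At the edge of the rule, 57 members had a sum of exactly 2 (median 2734 UMIs per cell) and 73 gated cells led with a sum of 1 (median 2065 UMIs). A further 39 gated cells reached 2 but were tied with another sum, and 77 were exceeded by one. Of 494 kept cells whose sum met the 5-gene rule, 271 failed the gate. Among these, 126 had under 2 Meis2 UMIs, 69 had an Olig2 UMI, and 52 had no more Meis2 than Pax6. The chosen group is therefore the smaller part of the cells with this gene sum.

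Evx1 and its antisense partner Evx1os lie head to head on chromosome 6 and overlap (GRCm38; Evx1 at 52313498 to 52318378 on the plus strand, Evx1os at 52308389 to 52314832 on the minus strand). The counting is not stated to use strand, so reads from the overlap may not be separable. The overlap, 52313498 to 52314832, holds the starts of both genes and not their 3′ ends, whereas the libraries read 3′ ends. How many reads fall in the overlap was not tested. The 250 bases before the RefSeq starts of these neighbours are shown, with those of Hopx and Lmcd1, because Evx1, Hopx and Lmcd1 define the cells and Evx1os overlaps Evx1. Capitals mark CAGCTG, an E-box core, and TAATTA or TAATTG, homeodomain cores, on either strand (TAATTG reads CAATTA on the other), and an E-box CAGATG was searched as well. TAATTG was added after the windows had been seen.
Evx1 (GRCm38.p6 chr6:52313248-52313497, plus strand): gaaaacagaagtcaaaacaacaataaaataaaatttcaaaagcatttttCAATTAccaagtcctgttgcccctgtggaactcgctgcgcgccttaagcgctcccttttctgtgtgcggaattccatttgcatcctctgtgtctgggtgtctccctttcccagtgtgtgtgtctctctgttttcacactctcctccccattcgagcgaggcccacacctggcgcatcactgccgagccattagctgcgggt
Evx1os (GRCm38.p6 chr6:52314833-52315082, minus strand): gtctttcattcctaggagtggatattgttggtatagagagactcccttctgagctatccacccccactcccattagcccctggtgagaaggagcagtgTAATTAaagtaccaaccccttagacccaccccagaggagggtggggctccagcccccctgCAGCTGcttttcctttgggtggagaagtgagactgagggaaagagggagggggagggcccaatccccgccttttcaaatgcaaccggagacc
Hopx (GRCm38.p6 chr5:77115124-77115373, minus strand, the first of 2 listed starts): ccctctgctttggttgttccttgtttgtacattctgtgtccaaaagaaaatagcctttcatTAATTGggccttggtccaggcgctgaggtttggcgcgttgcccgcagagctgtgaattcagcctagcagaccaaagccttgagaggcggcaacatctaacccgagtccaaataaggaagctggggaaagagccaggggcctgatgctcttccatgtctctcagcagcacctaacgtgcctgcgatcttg
Lmcd1 (GRCm38.p6 chr6:112273508-112273757, plus strand): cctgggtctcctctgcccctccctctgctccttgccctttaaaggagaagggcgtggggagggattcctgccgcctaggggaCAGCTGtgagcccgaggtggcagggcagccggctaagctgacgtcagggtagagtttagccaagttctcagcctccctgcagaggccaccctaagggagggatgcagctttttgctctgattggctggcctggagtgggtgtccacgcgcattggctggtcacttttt

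The Evx1 window overlaps an annotated exon of Evx1os, and the Evx1os window lies in an intron of Evx1. CAGCTG occurred once each in the Evx1os and Lmcd1 windows, as it did in 13% of 32851 windows of this length. TAATTA occurred once in the Evx1os window (4.84% of all windows), and TAATTG once each in the Evx1 and Hopx windows (7.17%). No window of these 4 held CAGATG, which 14.4% of all windows hold. Of 7 genes looked up, 5 had a RefSeq window. Such short matches are a description of the letters, not of binding.

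Markers outside the rule were then read to check the label. Levels here are CPM, the counts per 1e6 UMIs of the summed cells of a library. The 8 markers of excitatory nuclei neurons, which include Meis2 of the gate, summed to 2783, 4111, 3688 and 3502 CPM in control replicates 1 and 2 and CKO replicates 1 and 2, against 3548, 4432, 3879 and 3720 CPM in the other nuclei neurons, so they were lower in every library. Of them, Lhx9, Meis1 and Slc17a6, which mark excitatory nuclei neurons (Slc17a6 encodes the vesicular glutamate transporter VGLUT2), were present in all 4 libraries. Slc17a6 stood at 166 and 337 CPM in the control members and at 190 and 145 CPM in the CKO members, and passed as lower than in the other neurons in the test below (log2 fold change −0.46, edgeR adjusted p 0.0177), with lower levels in 3 of the 4 libraries. Lhx9 stood at 202 and 615 CPM against 695 and 335 CPM. The inhibitory genes Slc32a1 and Ptf1a were at 0 in the members of every library, and Gad1 was at 0 in 3 of them. The 8 GABAergic markers summed to 44.8 to 196 CPM, mostly Lhx1, which is itself on the list of LIM factors tested below. In the other nuclei neurons they summed to 37.1 to 68.1 CPM, which was lower in every library. The 6 radial glia markers summed to 516 to 888 CPM, against 314 to 665 CPM in the other nuclei neurons, and were also higher in every library. Microglial and endothelial markers summed to at most 2.07 and 0.689 CPM. The 8 granule lineage markers summed to 1443 to 2232 CPM, mainly Zic1 and Barhl1, against 732 to 1738 CPM in the other nuclei neurons and 3084 to 3729 CPM in Pax6-expressing cells. The 6 rhombic lip markers summed to 405 to 836 CPM, against 205 to 404 CPM in the other nuclei neurons. Robo3 and Sst, which lead another group of neurons that also express Olig2, stood at 276 to 442 and 130 to 607 CPM although Olig2 was at 0 by the rule. The 4 markers of that group summed to 825, 988, 407 and 994 CPM. In the other nuclei neurons they summed to 693, 495, 425 and 585 CPM, which was higher than in the members in CKO replicate 1. Erythroid markers summed to 250 CPM in the members of control replicate 2 and to 3.45 to 17.8 CPM in those of the other libraries. In control replicate 2 they summed to 277 CPM in the other nuclei neurons and 902 CPM in Pax6-expressing cells.

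The word nascent in the label was compared with cell cycle RNA. After thinning to 2000 UMIs, cycling meant 2 or more UMIs over a set of proliferation genes. Cycling cells were 0 of 23 (which allows up to 13%) and 1 of 45 control members, and 5 of 100 and 3 of 33 CKO members. The other nuclei neurons held 4.83% to 9.17%, and Pax6-expressing cells 29.4% to 39.8%. Without thinning, cycling members were 8.77% to 18.9%.

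The first comparison was between the Rflna/Hopx cells and the other nuclei neurons of the same libraries, over genes that the rule did not use. Rflna/Hopx cells had more RNA of early neurogenic factors and of several LIM and POU factors, and less RNA of many genes on the neuronal maturation and axon guidance lists. The lower median of the axon guidance list was small among intact cells, as given below. Their Atoh1 was 3.45-fold and their Pou3f1 3.28-fold higher, while Snhg11 was 9.26-fold and L1cam 5.73-fold lower. Counts were summed per library and group and tested by edgeR's quasi-likelihood test with the library as a block, with Benjamini-Hochberg adjustment and a threshold of 0.05. Of 7707 genes, 2270 passed, or 29.5%, with 1192 higher (15.5%) and 1078 lower (14%). Without TMM scaling the split was 866 higher and 1374 lower of 2240. Among intact cells 178 of 4350 genes passed (4.09%; 1.7% higher and 2.39% lower), and of the 1650 called genes that could be tested there 98.8% kept their direction. DESeq2 called 1080 genes, thinned cells gave 354 of 1802, and without CKO replicate 1 there were 1451. Rflna/Hopx cells had median mitochondrial shares of 2.18% to 4.33% against 4.02% to 6.99% in the other neurons, and the part of depth and mitochondrial share in these calls was not tested. Both groups were chosen by genes read in these same cells, so the calls describe the distance between the chosen sets. The sign was the same in all 4 libraries for 42.2% of all genes tested. Levels below are TMM-scaled CPM, in the order control replicates 1 and 2, CKO replicates 1 and 2.

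Of 26 neurogenic factors tested, 16 were higher and 2 lower, with a median log2 fold change of 0.49 against 0.01 over all genes tested. Among intact cells 4 were higher and 2 lower of 25. Atoh1 (ENSMUSG00000073043; mm10 chromosome 6, 64729125 to 64731245), the proneural factor of the rhombic lip, stood at 266, 121, 360 and 200 CPM in Rflna/Hopx cells and at 60.4, 34.8, 94.3 and 87.5 CPM in the other neurons. The Rflna/Hopx level was higher in every library, and the log2 fold change was 1.79 (SE 0.16, edgeR adjusted p 4.33e-12). Among intact cells it was 1.04 (edgeR adjusted p 0.00316). Nhlh2, a basic helix-loop-helix factor of newly formed neurons, stood at 295, 359, 531 and 754 CPM against 111, 137, 273 and 200 CPM (log2 fold change 1.39, SE 0.14, edgeR adjusted p 9.28e-11). Dll3 and Mfng, which act in Notch signalling, had log2 fold changes of 1.51 and 1.58. Both missed the threshold among intact cells (edgeR adjusted p 0.0546 and 0.261), and Mfng was higher in 3 of the 4 libraries only, with 25.1 against 26.9 CPM in CKO replicate 2. The 2 lower members were Myt1l, a factor of mature neuronal identity, and Neurod1.

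Of 24 LIM and homeodomain genes tested, 10 were higher and none passed as lower, with a median log2 fold change of 0.37. Among intact cells 3 of 20 were higher. Pou3f1, a POU factor, stood at 110, 215, 137 and 97.7 CPM in Rflna/Hopx cells against 36.5, 62.1, 37.0 and 38.1 CPM in the other neurons. All 4 libraries were higher, and the log2 fold change was 1.71 (SE 0.19, edgeR adjusted p 3.95e-10; intact cells 1.58, adjusted p 0.00376). Lmo1, a LIM-only cofactor, stood at 69.4, 88.6, 87.7 and 80.2 CPM, a narrow range, against 2.52 to 32.2 CPM (log2 fold change 1.95, edgeR adjusted p 1.74e-07; intact cells 1.19, adjusted p 0.0316). Lhx2, a LIM homeodomain factor listed among the markers of the group, stood at 318, 415, 525 and 494 CPM against 213 to 248 CPM. Its log2 fold change was 0.94 (SE 0.13, edgeR adjusted p 1.86e-07), and among intact cells 0.60 (adjusted p 0.0798). Lhx1 was 1.42 higher on the log2 scale, but among intact cells 0.52 (edgeR adjusted p 0.313) and against the Foxp2/Nr4a2 cells alone −0.04 (adjusted p 0.965). Evx1os, which overlaps the start of the selecting gene Evx1, stood at 110 to 355 CPM against 76.3 to 148 CPM. It is given without a test, because reads from the overlap may not be separable.

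Actin and filamin genes, fixed as a list because refilins bind filamins, had 11 of 15 higher and none lower, with 2 of 15 higher among intact cells. The 11 include no filamin. Flna, the filamin gene that could be tested and which is named after its values were seen, stood at 52.1, 23.3, 68.7 and 77.7 CPM in Rflna/Hopx cells against 63.0, 67.4, 76.4 and 94.2 CPM in the other neurons, below them in all 4 libraries (log2 fold change −0.37, edgeR adjusted p 0.168). Phlda1, a pleckstrin homology-like protein that is neither an actin nor a filamin, led the list with 312, 257, 939 and 449 CPM against 68.0, 66.4, 348 and 141 CPM. Its log2 fold change was 1.72 (SE 0.14, edgeR adjusted p 2.44e-13), and among intact cells 1.65 (edgeR adjusted p 9.34e-05). Its CKO replicate 1 level was the highest of the 4 libraries in both cell groups. Tagln3, Marcksl1 and Fscn1, which encode actin-associated proteins, had log2 fold changes of 0.95, 0.72 and 0.70.

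Neuronal maturation genes were the list with the most members lower: 24 of 33 were lower and 1, Snap25, higher, with a median log2 fold change of −0.76. Among intact cells 10 of 24 were lower and none higher. Snhg11, a neuronal long non-coding RNA, stood at 23.1, 103, 70.9 and 22.6 CPM in Rflna/Hopx cells against 694, 430, 416 and 832 CPM in the other neurons. The groups did not overlap, and the log2 fold change was −3.21 (SE 0.22, edgeR adjusted p 6.24e-16; intact cells −2.37, adjusted p 0.00208). Scn2a, a voltage-gated sodium channel, and Grin2b, an NMDA receptor subunit, had log2 fold changes of −3.13 and −3.02. Scn2a had only 1, 3, 10 and 1 UMIs in the Rflna/Hopx cells, and Grin2b 9, 1, 6 and 3. Neither had a test among intact cells.

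Axon guidance genes had 17 lower and 5 higher of 34 tested, with a median log2 fold change of −0.43. Among intact cells 2 of 21 were lower, and the median was −0.08 against −0.01 over all genes. L1cam, an adhesion molecule of growing axons, stood at 5.79, 42.0, 21.9 and 20.05 CPM against 184, 169, 103 and 146 CPM (log2 fold change −2.52, SE 0.23, edgeR adjusted p 4.33e-12; intact cells −2.07, adjusted p 0.00327). Every Rflna/Hopx value lay under every value of the other neurons. Epha4, an ephrin receptor, Nrp2, a semaphorin co-receptor, and Unc5d, a netrin receptor, had log2 fold changes of −3.27, −3.22 and −3.25. Nrp2 had only 1, 1, 5 and 0 UMIs in the Rflna/Hopx cells, and Unc5d 3, 0, 2 and 0. Epha4, Nrp2 and Unc5d had no test among intact cells. The 5 higher genes were Draxin, Cntn2, Efna5, Dcc and Cxcr4.

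The FGF feedback list, which also holds FGF and FGF receptor genes, gave 1 higher and 4 lower of 12 tested. Its median log2 fold change was −0.49, and 0.07 among intact cells, where none of 4 passed. Fgf17 was left out as a selecting gene. Spry2, a feedback inhibitor of FGF signalling, was 0.96 higher on the log2 scale (edgeR adjusted p 8.23e-05), and Flrt1, Fgf13, Spred3 and Fgfr1 were lower. Cell cycle genes had 6 lower of 15 and none higher. The p53 and apoptosis list had 2 higher (Btg2, Bax) and 1 lower (Plk2) of 12. The dissociation stress list had 4 higher (Btg2, Ier2, Jund, Jun) and 1 lower of 12, and none passed among intact cells.

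Apart from the lists, the 10 higher genes with the largest fold change, among genes at 20 CPM or more on average in either cell group, were Crispld2, Fam210b, Rasd2, Gm29521, Cck, Gm11266, Fzd10os, Pcsk6, Cdhr1 and Rangrf, with log2 fold changes from 1.98 to 2.64. Fam210b, a mitochondrial protein gene, stood at 197, 121, 348 and 283 CPM against 27.7, 18.4, 69.2 and 92.0 CPM (log2 fold change 2.28, SE 0.18, edgeR adjusted p 4.13e-14; intact cells 1.64, adjusted p 0.000316). Cdhr1, a cadherin-related gene, was also higher among intact cells (log2 fold change 1.12, edgeR adjusted p 0.0207), and Rasd2, a small GTPase gene, was not past the threshold there (1.11, adjusted p 0.0928). Cck, the cholecystokinin gene, stood at 17.4, 46.6, 60.7 and 32.6 CPM against 4.49 to 17.9 CPM. The 10 lower genes were Cntn5, Grin3a, Tmem130, Tenm1, Id4, Csmd3, Epha4, 8030451O07Rik, Unc5d and Nrp2, from −4.46 to −3.22. Cntn5, a contactin, had 0, 1, 2 and 0 UMIs in the Rflna/Hopx cells against 61, 62, 24 and 15 UMIs in the other neurons. Id4, an inhibitor of basic helix-loop-helix factors, stood at 11.6, 27.98, 8.77 and 7.52 CPM against 70.5, 131, 169 and 65.1 CPM.

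**Figure D2:**
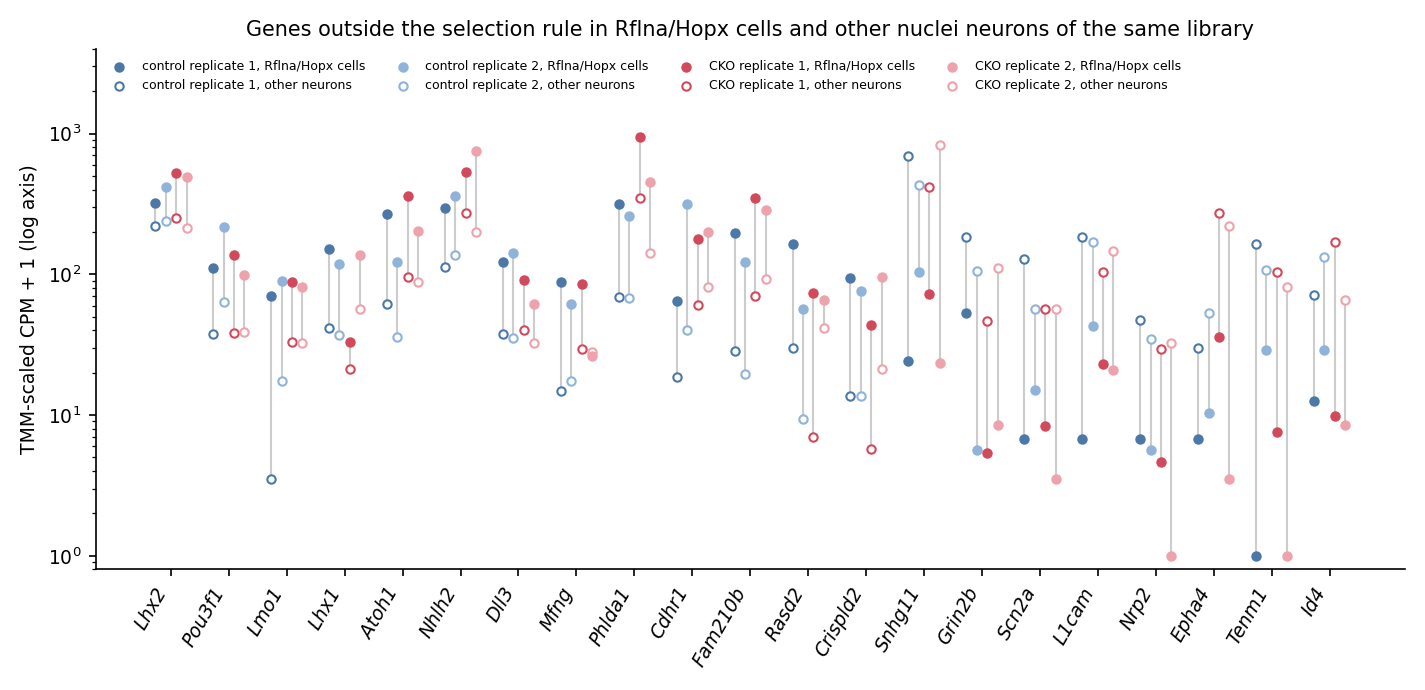
TMM-scaled CPM plus 1 (log axis) of genes outside the rule, in Rflna/Hopx cells (filled) and other nuclei neurons (open), with a grey line joining the same library. Factors such as Atoh1 (log2 fold change 1.79) and Pou3f1 (1.71) stand higher in the filled points, and maturation and guidance genes such as Snhg11 (−3.21) and L1cam (−2.52) stand lower.

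The next comparison asked whether the share of Rflna/Hopx cells differed with loss of Engrailed. Of the gated cells, they were 26 of 402 (6.47%) and 57 of 1463 (3.90%) in control replicates 1 and 2, and 103 of 371 (27.8%) and 37 of 259 (14.3%) in CKO replicates 1 and 2. The 95% Wilson intervals, which cover counting error only, were 4.45% to 9.31% and 3.02% to 5.01% against 23.5% to 32.5% and 10.5% to 19.1%. Both CKO libraries lay above both controls. The mean share was 5.18% ± 1.82 (SD, n = 2) in the controls and 21.0% ± 9.53 (SD, n = 2) in the CKO libraries, a ratio of 4.06, with a two-sided exact permutation p of 0.3333, the smallest that 2 against 2 libraries can give. Leaving out control replicate 1, control replicate 2, CKO replicate 1 or CKO replicate 2 gave ratios of 5.40, 3.25, 2.76 and 5.36.

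Thinning and the limit to intact cells kept the order of the groups, and another denominator did not. With every cell thinned to 2000 UMIs the shares were 3.77% and 2.59% for control against 16.8% and 7.59% for CKO. Among intact gated cells they were 22.2% and 19.4% against 70.6% and 46.8%. Of all kept cells, they were 0.893% and 1.45% against 5.13% and 1.00% (exact permutation p 0.667), and the groups overlapped: CKO replicate 2 lay between the controls. Of all thinned cells, a setting added after seeing the data, they were 0.507% and 1.03% against 2.84% and 0.423% (exact permutation p 1), with CKO replicate 2 below both controls. The gated cells themselves were 13.8% and 37.2% of kept control cells and 18.5% and 7.01% of kept CKO cells. The Foxp2/Nr4a2 share of the gated cells also stood higher in both CKO libraries (2.70% and 4.25%) than in the controls (2.24% and 1.78%). The Gria1/Col25a1 and Bnc2/Zfhx3 shares stood lower, and the Grm5/Bcl11b share overlapped. A higher share of the gate can come from more Rflna/Hopx cells or from fewer others, and these cannot be told apart from shares.

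**Figure D3:**
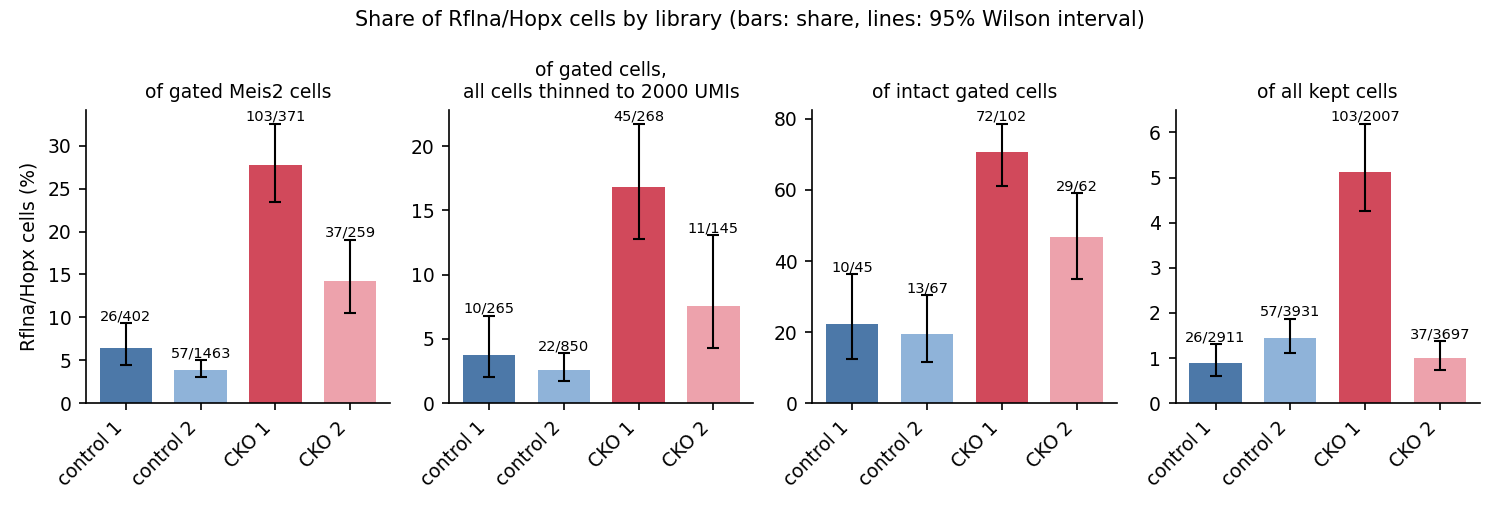
Rflna/Hopx cells as a percent of 4 denominators in each library, with 95% Wilson intervals and the numbers of cells. The CKO libraries lie above the controls for gated (27.8% and 14.3% against 6.47% and 3.90%), thinned and intact cells, and overlap with them when all kept cells are the denominator (5.13% and 1.00% against 0.893% and 1.45%).

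The last comparison was of gene expression between CKO and control Rflna/Hopx cells. En2 and En1, the deleted genes, were read first. En2 (ENSMUSG00000039095) had 62 and 79 UMIs in the control members and 89 and 9 in the CKO members, or 357 and 361 CPM against 61.8 and 21.5 CPM. The fall was 7.60-fold (log2 fold change −2.93, SE 0.35, edgeR adjusted p 0.000463), and it also passed among intact cells (−3.20, adjusted p 0.0108). En1 stood at 834 and 860 CPM against 355 and 759 CPM (log2 fold change −0.62, edgeR adjusted p 0.612), and the CKO replicates differed more than the groups. The libraries read 3′ ends, and the position of the deleted part relative to the counted ends is not given in the sources used here.

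Beyond En2, 9 genes passed, so 10 of 5499 were called (0.182%), 1 higher (0.0182%) and 9 lower (0.164%). At an unadjusted p under 0.05 there were 450 genes, and 38.8% of all genes tested had both CKO libraries beyond both controls. Ppp1r14c, which encodes a protein phosphatase inhibitor, stood at 40.3 and 41.2 CPM in the controls and at 182 and 205 CPM in the CKO libraries, with control UMIs of only 7 and 9. Its log2 fold change was 2.23 (SE 0.37, edgeR adjusted p 0.0191). Meg3, a maternally expressed long non-coding RNA, stood at 1064 and 1373 CPM against 464 and 243 CPM (log2 fold change −1.76, SE 0.32, edgeR adjusted p 0.0257). Rian, from the same imprinted region, stood at 144 and 178 CPM against 45.8 and 47.7 CPM (log2 fold change −1.80, edgeR adjusted p 0.0257). Ebf1, a transcription factor of differentiating neurons, stood at 754 and 1871 CPM against 415 and 370 CPM (log2 fold change −1.74, edgeR adjusted p 0.0499). The other lower genes were Sorl1, Ier5, Pcsk2, Ank2 and AC149090.1, with log2 fold changes of −2.45, −1.91, −1.90, −1.89 and −1.77.

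These calls depended on which cells were counted. Among intact cells 1 of 4780 genes passed (0.0209%), En2, and 9 of the 10 could be tested there. All 9 kept their direction. Ebf1 and Ank2 were smaller there (log2 fold changes −0.94 and −0.95), while Ppp1r14c (2.56) and Sorl1 (−2.16) stayed near their main values. With 3 doublet-marked members left out only En2 passed, although the log2 fold changes moved little: Ppp1r14c was 2.18 and Rian −1.75 (edgeR adjusted p 0.0583 for both), and Meg3 −1.69 (adjusted p 0.099). Leaving out control replicate 1, CKO replicate 1 or CKO replicate 2 raised the count to 34, 19 and 43, and without control replicate 2 it was 14. Of the 10 genes, those still called numbered 10, 7, 8 and 4 in that order.

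**Figure D4:**
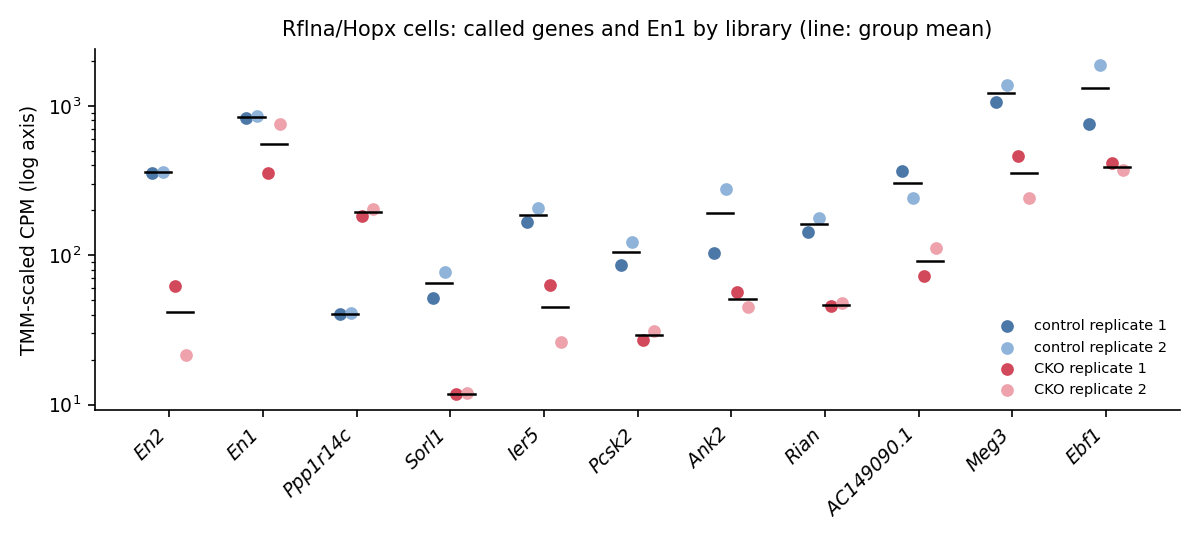
TMM-scaled CPM (log axis) of the 10 called genes and En1 in the Rflna/Hopx cells of each library, with black lines at the group means. The CKO libraries lie below the controls for En2 (61.8 and 21.5 against 357 and 361 CPM) and above them for Ppp1r14c (182 and 205 against 40.3 and 41.2 CPM).

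The selecting genes were compared only as levels. Rflna stood at 69.0 and 41.2 CPM in the controls and 128 and 146 CPM in the CKO members, Hopx at 115 and 50.3 against 106 and 186 CPM, Evx1 at 144 and 320 against 233 and 136 CPM, Lmcd1 at 299 and 302 against 203 and 179 CPM and Fgf17 at 150 and 151 against 143 and 57.3 CPM. Rflna was the gene of the 5 for which both CKO libraries stood above both controls, and Lmcd1 and Fgf17 had both CKO libraries below both controls. Among the lists, none of 7 cell cycle genes and none of 25 axon guidance genes passed, and of 25 neuronal maturation genes only Meg3 did, by edgeR, with 2, 12 and 4 genes at an unadjusted p under 0.05. The median log2 fold changes of these lists were 0.95, −0.44 and −0.34, against 0.01 over all genes. Among intact cells the medians were 0.60, −0.07 and 0.05, against 0.01 over all genes, so the lower medians of the guidance and maturation lists were not kept there. All 7 cell cycle genes fitted above 0. Top2a stood at 40.3 and 18.3 CPM against 128 and 26.3 CPM and Ube2c at 23.0 and 32.0 against 108 and 9.55 CPM. For Top2a and Ube2c only CKO replicate 1 lay above both controls. Ccnd2 stood at 127 and 86.9 against 154 and 339 CPM, with both CKO libraries above both controls (edgeR adjusted p 0.362). Ccnd1, at 69.0 and 9.15 against 66.6 and 76.4 CPM, overlapped between the groups. Of the axon guidance genes 16 fitted below 0, and of the maturation genes 19 did. Lhx2 stood at 316 and 407 CPM against 498 and 470 CPM (log2 fold change 0.42, edgeR adjusted p 0.714).

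Whether the CKO difference itself differed between Rflna/Hopx cells and the other nuclei neurons was tested by the genotype by cell group interaction. In the other neurons alone 86 of 8817 genes passed between genotypes (0.975%; 70 higher, 0.794%, and 16 lower, 0.181%). For the interaction, 11 of 8714 passed (0.126%), 2 higher (0.023%) and 9 lower (0.103%). Crabp1, a retinoic acid-binding protein, stood at 11.7 and 41.5 CPM in the control Rflna/Hopx cells and 154 and 47.0 CPM in the CKO ones, but at 20.3 and 32.5 against 5.97 and 2.27 CPM in the other neurons (log2 difference 4.52, SE 0.64, edgeR adjusted p 2.21e-08; DESeq2 adjusted p 0.165). Without CKO replicate 1 it was 4.21 and did not pass (edgeR adjusted p 0.189). Within the Rflna/Hopx cells alone its difference did not pass (log2 fold change 1.92, edgeR adjusted p 0.322), with 47.0 against 41.5 CPM in the replicates numbered 2, while in the other neurons its fall passed (−2.53, adjusted p 0.0477). Pvalb, the calcium buffer parvalbumin, stood at 367 and 198 against 192 and 440 CPM in Rflna/Hopx cells, where the groups overlapped, but at 95.1 and 53.3 against 231 and 352 CPM in the other neurons (log2 difference −1.91, SE 0.29, edgeR adjusted p 1.69e-07). In thinned cells the signs of Pvalb and Btg2 turned (0.40 and 0.76), and in intact cells those of Rian and Meg3 (0.10 and 0.50). Thinned cells gave 0 calls, with 169 of 2566 genes at an unadjusted p under 0.05. DESeq2 gave 1 call, intact cells 21 of 5423 (0.387%; 0.203% higher and 0.184% lower), and without CKO replicate 2 there were 3.

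**Figure D5:**
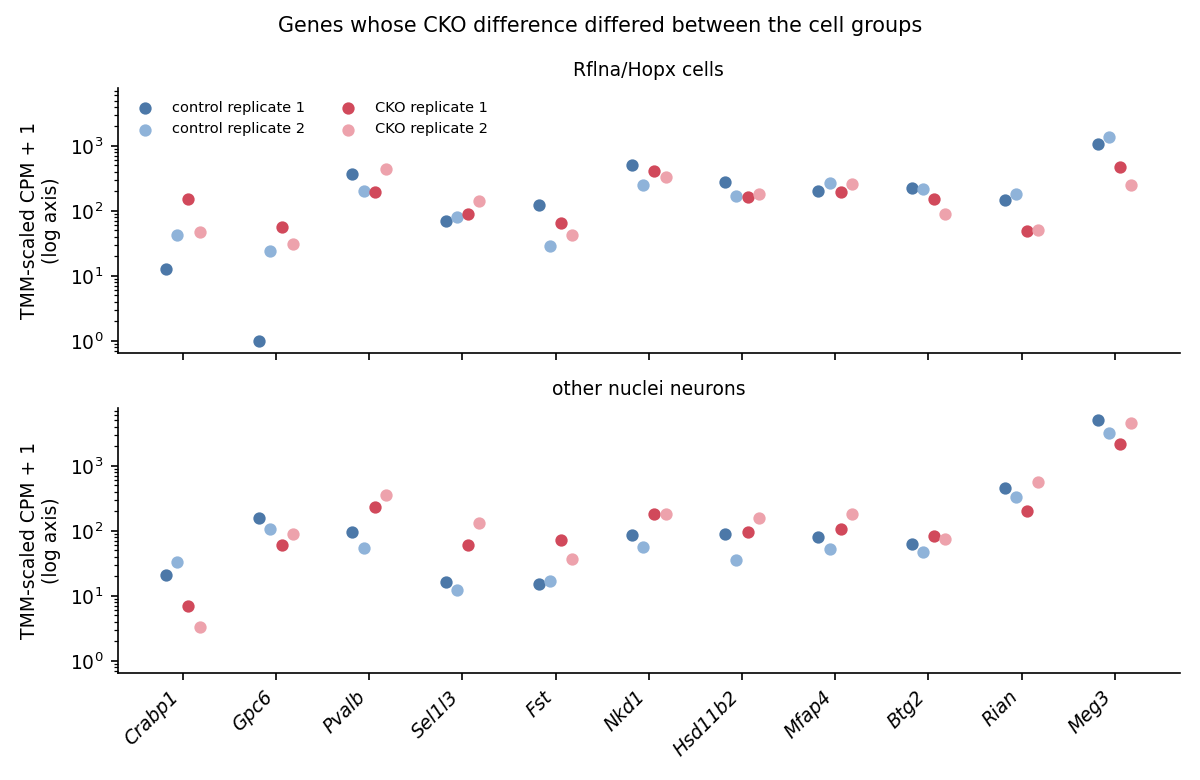
TMM-scaled CPM plus 1 (log axis) of the 11 genes with a called interaction, in Rflna/Hopx cells (top) and other nuclei neurons (bottom) by library. Crabp1 stood at 154 and 47.0 CPM in CKO against 11.7 and 41.5 CPM in control Rflna/Hopx cells, a difference that did not pass, and was lower in the CKO cells of the other neurons (5.97 and 2.27 against 20.3 and 32.5 CPM).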

How the data were processed

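Single-cell RNA was measured in 2 control and 2 En1/2 CKO libraries, with 10x 3′ v3.1 chemistry per the labels' protocols. The deposited values are raw UMI counts per gene and barcode, made by the authors with Cell Ranger 5.0.0 on mm10 per the submitters' processing notes. Of 32285 gene IDs, 32158 matched GENCODE M21 for positions.

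Cells were kept, gated and classified by the fixed thresholds given in the text. Doublets were scored by simulation within each library at 0.8% per 1000 cells and kept in the main analysis. UMI counts were summed per library and cell group, and tested by edgeR 4.0.16 (R 4.3.3; quasi-likelihood, TMM, filterByExpr, threshold 0.05 after Benjamini-Hochberg adjustment over all genes tested). The 28 rule genes were left out of calls. Each SE was taken as the ratio of the log2 fold change to the root of the F statistic. Shares were compared by an exact permutation test, with 95% Wilson intervals. Each fit was tested on simulated data. Named genes were up to 10 called each way with at least 20 CPM on average in 1 of the groups compared and the libraries on the same side, plus up to 4 of each of 9 lists. The members and the lists were chosen with earlier results of these data known. Alternatives were DESeq2 1.42.0, no TMM, no low-count filter, thinning to 2000 UMIs, a sum of at least 3, intact cells, no doublets, each library left out, and each comparison group alone. The comparison with all other gated cells and the share of all thinned cells were added after seeing the data.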

Additional observations from a re-analysis of the deposited data

Results flagged for a closer look

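The CKO difference differed between Rflna/Hopx cells and the other nuclei neurons for 11 genes, by edgeR's interaction test. Crabp1 (log2 difference 4.52) and Gpc6 (2.77) were above 0. Gpc6 rested on 0 and 5 UMIs in the control Rflna/Hopx cells, and was not called without control replicate 1 (1.72) or without CKO replicate 1 (1.74). Sel1l3 (−2.18), Fst (−2.10), Pvalb (−1.91), Hsd11b2 (−1.42), Rian (−1.41), Btg2 (−1.36), Meg3 (−1.35), Nkd1 (−1.30) and Mfap4 (−1.26) were below 0. For Crabp1, Sel1l3, Fst, Pvalb and Nkd1 the difference between genotypes passed in the other neurons (log2 fold changes −2.53, 2.83, 1.89, 2.02 and 1.39) and not in Rflna/Hopx cells (1.92, 0.53, −0.38, 0.10 and −0.04). For Rian and Meg3 it passed in Rflna/Hopx cells (−1.80 and −1.76) and not in the other neurons (−0.06 and −0.28), but among intact cells both interactions turned sign (0.10 and 0.50). Thinned cells turned Pvalb (0.40) and Btg2 (0.76). Leaving out control replicate 1, control replicate 2, CKO replicate 1 or CKO replicate 2 left 7, 5, 5 and 3 of the 11 called. Depth differed between the groups as given above, and its part in these differences was not tested.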

How the results depend on the processing

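The log2 ratio of the shares of gated cells, 2.02, was 1.39 of all kept cells, 1.94 thinned, 1.09 of all thinned cells, 2.56 with a sum of at least 3, 1.495 in intact cells and 1.97 without doublets, and 1.46 to 2.43 with 1 library left out. The 10 genes called between genotypes became 5 by DESeq2, 6 without TMM, 30 without a low-count filter, 5 thinned, 1 in intact cells, 1 without doublets, 14 to 43 with 1 library left out, and 21 with the replicate block. The 2270 of 7707 genes called against the other neurons became 1080 of 7707 by DESeq2, 354 of 1802 thinned and 178 of 4350 in intact cells. Against single groups they were 1947 of 7153 for the Bnc2/Zfhx3, 684 of 3853 for the Grm5/Bcl11b and 729 of 2513 for the Foxp2/Nr4a2 cells. Against all other gated cells 2594 of 9109 passed, and with 1 library left out 1451 to 2166 did. The 11 interaction calls became 1 by DESeq2, 6 without the filter, 0 thinned (169 at an unadjusted p under 0.05), 21 in intact cells, 7 without doublets, 3 to 16 with 1 library left out, and 0 with the replicate block (202 at an unadjusted p under 0.05). The labels do not say that replicate numbers pair libraries, and the differences between replicates 1 and 2 correlated at −0.07 across genes between the genotypes. Signs turned for Lhx1 against the Foxp2/Nr4a2 cells (−0.036) and in the interaction for Pvalb (0.40) and Btg2 (0.76) thinned and Rian (0.10) and Meg3 (0.50) in intact cells. The causes were not tested. The Gria1/Col25a1 cells alone were not run as a comparison, because the CKO libraries held 3 and 1. The control Rflna/Hopx cells held 168552 and 219662 UMIs in sum, which limits the depth behind the genotype test.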
